A study of Homo sapiens with 4 samples.

Results

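The 8 genes described here encode cell surface proteins that are targets, or proposed targets, of antibodies and engineered T cells against myeloma. They were taken by name, from the 20037 protein-coding genes of the gene table, and are TNFRSF17, TNFRSF13B, TNFRSF13C, CD27, CD38, SDC1, FCRL5 and GPRC5D. A window ran from 25 kb before to 25 kb after each gene, and a peak belonged to a window when its summit, the point of highest signal, lay inside it. The samples were MM1.S cells, an established human multiple myeloma line, grown without treatment. IRF3, a transcription factor, was immunoprecipitated from formaldehyde-fixed chromatin and the recovered DNA was sequenced. There were 2 IRF3 ChIP libraries, each with an input library of the same number, and a peak list was analysed for each ChIP library. Nothing in the labels names separate cultures, so the spread between the 2 replicates may be technical, and with 1 condition no test between groups was possible.

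IRF3 is a member of the interferon regulatory factor family, which binds DNA at repeats of the letters GAAA, and it is known for turning on type I interferon after cells sense foreign nucleic acid. Plasma cells, and the myeloma cells derived from them, carry receptors for the survival ligands APRIL and BAFF, of which BCMA (TNFRSF17) is the main one on mature plasma cells. TACI (TNFRSF13B) and the BAFF receptor (TNFRSF13C) belong to the same receptor group and are used more by earlier B cells. CD38 is an enzyme on the outer membrane that consumes NAD, and SDC1 is CD138, the proteoglycan used to recognise plasma cells. FCRL5 is an Fc receptor-like protein, GPRC5D an orphan G protein-coupled receptor, and CD27 the receptor of the ligand CD70.

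Peak calling had used 38568845 and 46474586 ChIP tags in replicates 1 and 2, which gave 41880 and 41666 peaks. Of these, 48 and 50 peaks had their summits in the 8 windows. Where a peak of one list overlapped a peak of the other, by 1 bp or more, they were joined into a shared region, and the genome held 32246 of these. Fold enrichment below is the authors' value for a peak, its ChIP signal over the local input background, and the strongest peak of each replicate stands for a region. Across all shared regions the standard deviation (SD) of log2 fold enrichment between replicates was 0.39, a factor of 1.31. Replicate 2 was higher by a median of 0.25 on that scale.

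IRF3 regions were found around all 8 genes. The windows held 39 shared regions, 6 regions of replicate 1 alone and 9 of replicate 2 alone. At least 1 shared region lay in 8 of 8 windows, beside 77.1% of all protein-coding genes treated the same way, so this count by itself says little about these genes. CD38 had 8 shared regions, TNFRSF13B 7, CD27 and FCRL5 6 each, SDC1 5, TNFRSF17 3, and TNFRSF13C and GPRC5D 2 each. The median of the 8 windows was 5.50 regions, compared with 2 (quartiles 1 and 3) over all protein-coding genes. Longer genes have longer windows, and per 100 kb of window the values ran from 3.25 at GPRC5D to 10.4 at CD27. Their median was 6.55 per 100 kb, beside 1.72 (quartiles 0.480 and 3.57) over all genes. By this density GPRC5D was the sole window inside the quartiles of all genes, and TNFRSF13C, at 3.65, was just above them. These counts include regions nearer to another gene, here as for all genes, and both at TNFRSF13C were of that kind. By number of regions, TNFRSF17, TNFRSF13C and GPRC5D all lay within the quartiles.

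**Figure D1:**
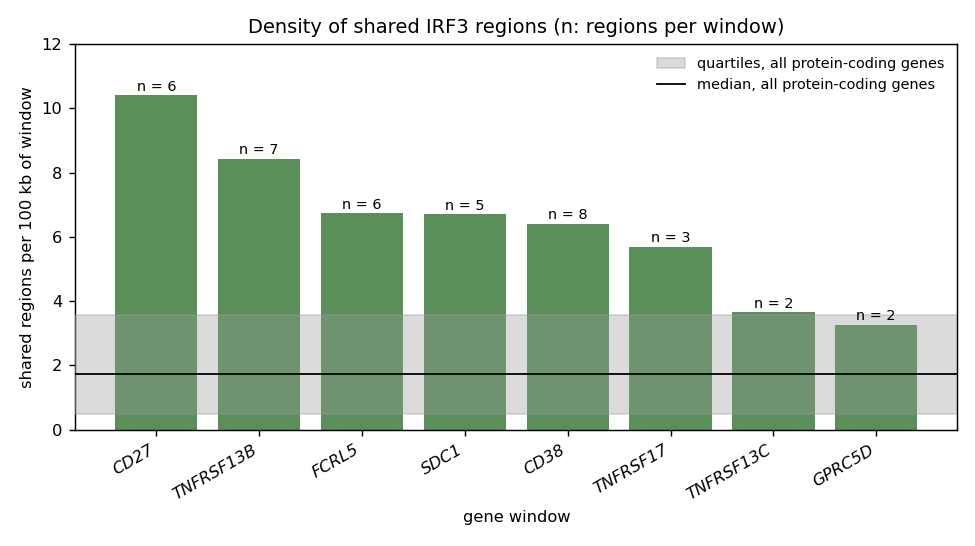
Bars give the number of shared IRF3 regions per 100 kb of window for each gene, with the number of regions above each bar. Regions nearer to another gene are included. The line and the grey band give the median (1.72) and quartiles of all protein-coding genes; 7 of the 8 bars end above the band, from 3.65 at TNFRSF13C to 10.4 at CD27, and GPRC5D at 3.25 ends within it.

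Not all of these regions lay nearest to the gene whose window held them. Of the 39, 28 had the surface target gene as the nearest protein-coding gene, measured to its start or, where no start is listed, to either end. The other 11 were nearer to a neighbour. In the window of CD38 there were 5 such regions, with 3 in that of CD27, 2 in that of TNFRSF13C and 1 in that of TNFRSF17. This rule favours genes without a listed start, which have both ends to measure to. BST1, the neighbour of the 5 regions in the CD38 window, is such a gene, as are TNFRSF17 and TNFRSF13C. By the position of the summit, 12 shared regions lay inside the gene they were assigned to, 13 before its start and 9 after its end. The remaining 5 had their summits outside TNFRSF17 or TNFRSF13C, for which no start is listed. A region with its summit outside a gene can still cover part or all of it.

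Strength in the windows ranged widely. A fold enrichment of at least 5 in both replicates was found in 14 of the 39 regions (35.9%), compared with 30% of all shared regions. Among the strongest 10% of shared regions in the genome, ranked by the worse of the 2 replicate ranks, there were 7 (17.9%). These lay in 5 of the 8 windows, namely those of CD27, CD38, SDC1, TNFRSF13B and TNFRSF17, beside 26.1% of all protein-coding genes. The one in the CD27 window lay 52 bp from VAMP1, and 1 of the 2 in the TNFRSF17 window lay 76 bp from SNX29. The median fold enrichment of the 39 regions was 4.56 in replicate 1 and 4.51 in replicate 2, close to the 4.28 and 4.94 of all shared regions. The 2 replicates placed the summits of a region a median of 57.0 bp apart (48.0 bp over all shared regions). Long regions of 3 kb and more made up 5 of the 39 (12.8%), beside 1.25% of all shared regions, and were at SDC1, TNFRSF13B and TNFRSF17. That length was set after these regions were seen, so the shares are a description only. Some of these regions joined more than 1 peak of a list.

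**Figure D2:**
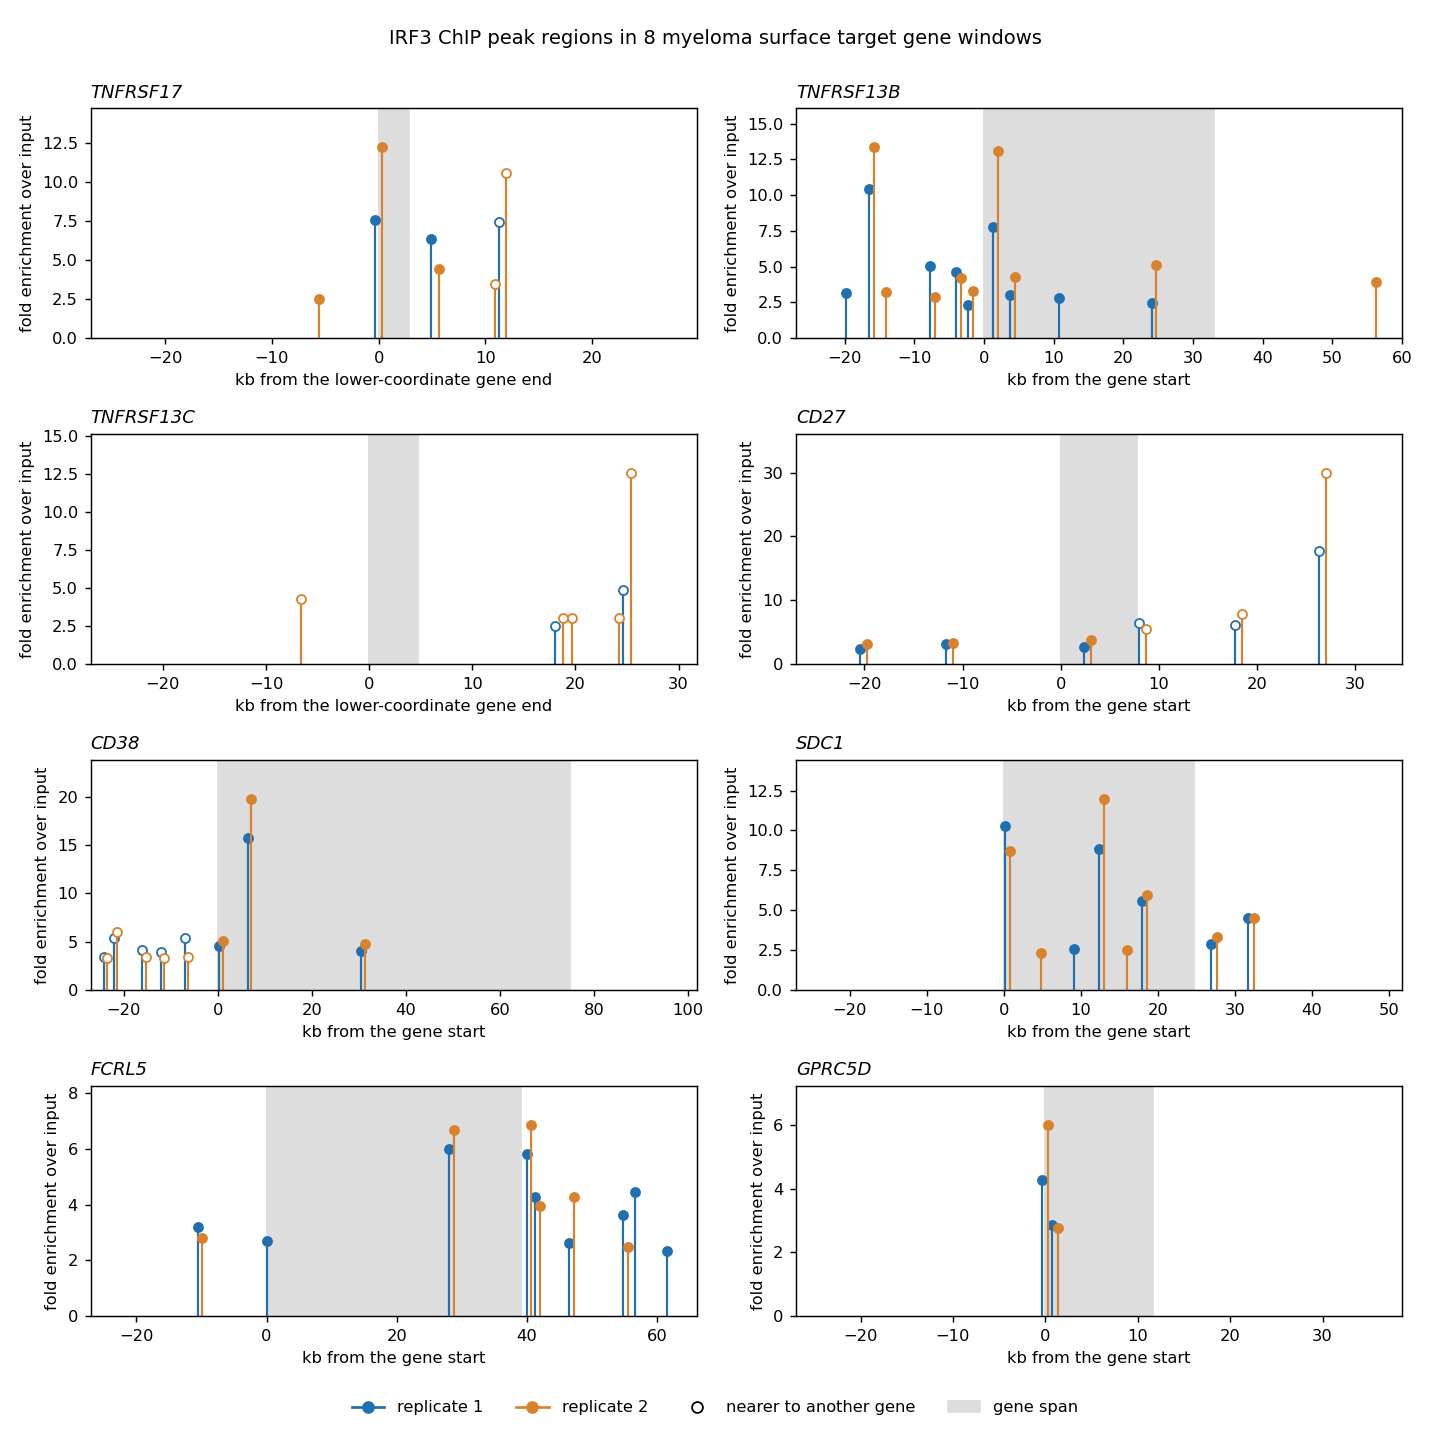
Each panel shows the window of 1 gene, with the distance from the gene start in kb on the horizontal axis (from the lower-coordinate end for TNFRSF17 and TNFRSF13C) and fold enrichment over input on the vertical axis, whose range differs between panels. Stems are regions in replicate 1 (blue) and replicate 2 (orange), moved apart sideways by 0.7 kb to be visible; open circles are nearer to another gene and grey marks the gene span. The CD38 panel has 1 tall region 6.75 kb after the start, while the tall regions in the CD27 and TNFRSF13C panels have open circles.

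At the starts of the genes, a shared region lay within 1 kb in 4 of the 8 cases, namely TNFRSF17, SDC1, CD38 and GPRC5D. That share is near the 51.5% of all protein-coding genes. Among genes with a listed start it was 3 of 6, beside 54.4%. The regions at these 4 genes had a median place among the strongest 23.5% of shared regions, compared with 22.5% for all genes called in this way (quartiles 9.42 and 45.1). Neither the number nor the strength of regions at starts set these genes apart. With a fold enrichment of at least 5 required in both replicates the count was 2 (29.4% of all genes), and with summits required within 100 bp of each other it was also 2 (42.7%), in both cases TNFRSF17 and SDC1.

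The sequence just before the start shows how different these promoters are. RefSeq promoter sequences (GRCh38.p14) were matched for 6 of the 8 genes, with 2 starts for SDC1, and not for TNFRSF17 and TNFRSF13C. The 250 bases before the start are printed 5′ to 3′ on the strand of the gene for 3 genes with a shared region at the start (SDC1, CD38 and GPRC5D) and for CD27, which had none. Capitals mark matches to the motifs named after them.
SDC1, the outer start, chr2:20225476-20225725, minus strand: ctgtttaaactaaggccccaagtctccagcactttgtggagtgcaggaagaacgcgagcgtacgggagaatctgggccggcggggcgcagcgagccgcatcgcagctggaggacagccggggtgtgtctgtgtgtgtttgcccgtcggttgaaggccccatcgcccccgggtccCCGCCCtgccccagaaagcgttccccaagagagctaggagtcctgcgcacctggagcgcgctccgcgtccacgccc
CD38, chr4:15778078-15778327, plus strand: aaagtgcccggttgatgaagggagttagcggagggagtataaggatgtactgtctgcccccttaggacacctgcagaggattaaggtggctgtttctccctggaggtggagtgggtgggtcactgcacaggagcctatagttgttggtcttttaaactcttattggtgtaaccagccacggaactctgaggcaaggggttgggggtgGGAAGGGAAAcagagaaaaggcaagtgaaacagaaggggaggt
GPRC5D, chr12:12952171-12952420, minus strand: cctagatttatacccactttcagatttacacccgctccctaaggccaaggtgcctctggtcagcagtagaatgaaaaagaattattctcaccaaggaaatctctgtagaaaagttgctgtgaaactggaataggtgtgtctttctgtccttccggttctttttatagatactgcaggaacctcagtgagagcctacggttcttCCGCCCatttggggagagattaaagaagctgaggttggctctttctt
CD27, chr12:6443642-6443891, plus strand: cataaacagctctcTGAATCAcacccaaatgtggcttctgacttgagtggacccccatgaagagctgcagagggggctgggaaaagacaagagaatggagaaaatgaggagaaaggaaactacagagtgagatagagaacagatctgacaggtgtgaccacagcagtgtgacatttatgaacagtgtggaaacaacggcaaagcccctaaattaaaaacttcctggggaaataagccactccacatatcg

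Each motif was searched on both strands from 250 bases before to 50 after the start. The core of the interferon-stimulated response element, GAAANNGAAA, had no match in the 7 windows of the 6 genes, and 3.57% of the 35116 RefSeq promoters held it. CD38 held the single match to the ETS-IRF composite element, GGAANNGAAA (2.82% of promoters), as ggaagggaaa beginning 43 bases before the start. CD27 held a match to the AP-1 pattern TGANTCA (7.71%), in which N is any base, as tgaatca beginning 236 bases before its start. The GC box GGGCGG, present in 45.0% of promoters, was found once each in the windows of SDC1 (both starts), GPRC5D and TNFRSF13B. The cyclic AMP response element TGACGTCA (1.85%) and the E box CACGTG (7.26%) had no match. The first 2 motifs can overlap each other but not begin at the same base on 1 strand. A match is a description of the letters and no evidence of binding.

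Base composition also differed between these promoters. SDC1 had 23 and 21 CG dinucleotides in the 250 bases before its starts and a GC content of 66.4% and 75.2%. CD38, with 3 CG dinucleotides and 52.4% GC, and GPRC5D, with 4 and 44.4%, lay below the medians of all promoters (11 and 58.0%). CD27 had 2 and 46.0%, FCRL5 3 and 34.8%, and TNFRSF13B 5 and 62.0%. Starts with a shared region thus had few CG dinucleotides in these 250 bases at CD38 and GPRC5D and many at SDC1. The CD38 summits lay 673 and 494 bp inside the gene, and those at SDC1 were also inside it. Base composition there was not counted.

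TNFRSF17, which encodes BCMA, lay entirely within a single IRF3 region. The gene is 2.86 kb long (chromosome 16, 11965210 to 11968068, GRCh38) and the region measured 5.47 kb (11962849 to 11968316), longer than all but 0.146% of shared regions. Fold enrichment was 7.58 in replicate 1 and 12.3 in replicate 2, with −log10 q values of 109 and 155. The summit lay 42 bp outside the lower-coordinate end in replicate 1 and 18 bp outside it in replicate 2. Both replicates thus placed the highest signal at the same end of the gene, and the region was among the strongest 7.10% of shared regions. A second shared region lay 2.42 kb beyond the opposite end, with fold enrichments of 6.38 and 4.41, so replicate 1 was the higher there. The third, at 7.43 and 10.6, was 76 bp from an end of SNX29, a sorting nexin gene, and 8.74 kb from TNFRSF17. Replicate 2 alone had 2 weak regions, at 2.49 and 3.47. The span of NPIPB2, one of a family of near-identical gene copies, contains TNFRSF17 in the gene table. Misplaced reads from such copies were not tested.

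TNFRSF13B, which encodes TACI, had 7 shared regions and no other protein-coding gene nearer to any of them (chromosome 17, 16939081 to 16972118, minus strand). A region of 4.03 kb (16968568 to 16972600) covered the start, but its summit was 1.56 kb inside the gene in replicate 1 and 1.61 kb in replicate 2, outside the 1 kb limit. Its fold enrichments were 7.77 and 13.1. The strongest region lay 16.2 kb before the start (16987537 to 16990527), at 10.4 and 13.4, with pileups, the heights of stacked fragments at the summit, of 287 and 239. It was among the strongest 3.76% of shared regions. Between it and the start lay 3 shared regions of 5.06 and 2.84, 4.62 and 4.22, and 2.29 and 3.29, at 7.35, 3.69 and 1.88 kb before the start. Inside the gene there were 2 more, of 2.99 and 4.24 and of 2.46 and 5.10. In the last, replicate 2 was higher by 1.05 on the log2 scale, beside a median shift of 0.25 towards replicate 2 over all shared regions. That median is signed and does not give the usual size of a gap between replicates. The 4 regions of a single list ranged from 2.78 to 3.91.

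TNFRSF13C, which encodes the BAFF receptor, had no IRF3 region at either end or inside it (chromosome 22, 41922032 to 41926806). The 2 shared regions of its window were both nearer to CENPM, a centromere protein gene. One of these, 141 bp from the listed CENPM start, had fold enrichments of 4.87 and 12.6 (41946339 to 41947453). Its summit also lies within the span of SMIM45. The replicates of this region differed by 1.37 on the log2 scale, the widest gap among the 39 regions. The second had 2.49 and 3.05. On the other side of the gene, replicate 2 alone had a region of 4.25 that lay 34 bp from the start or an end of SHISA8, and 6.99 kb from TNFRSF13C. Of the 3 receptors for APRIL and BAFF, TNFRSF17 had a region centred on an end, TNFRSF13B one that covered its start and TNFRSF13C none nearer than 13.6 kb in both replicates.

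CD27 had no IRF3 region at its start (chromosome 12, 6443892 to 6451713, plus strand). Its nearest shared region, inside the gene 2.78 kb after the start, had fold enrichments of 2.68 and 3.77, both below the medians of all shared regions. The gene CD27-AS1 also spans that summit. The 2 regions before the start were as weak, at 3.17 and 3.27 (11.3 kb before) and 2.40 and 3.18 (20.1 kb before). Beyond the end of CD27 the values were higher, and there the nearest genes were TAPBPL, which encodes a peptide editor of MHC class I, and VAMP1, a vesicle fusion protein gene. The region 184 bp from the start or an end of TAPBPL had 6.46 and 5.54. A region 52 bp from the start or an end of VAMP1 (6470245 to 6471427) had 17.7 and 30, with pileups of 441 and 388, and was among the strongest 0.499% in the genome. It lay 26.7 kb from the CD27 start and was the strongest of all 39. The high count and the high value of the CD27 window therefore stood at neighbouring genes for 3 of its 6 regions.

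CD38 had its main region inside the gene. The gene spans 74.9 kb (chromosome 4, 15778328 to 15853232, plus strand), and the region lay 6.75 kb after the start (15784630 to 15785532). Fold enrichment was 15.7 in replicate 1 and 19.8 in replicate 2, with −log10 q values of 214 and 209, which put it among the strongest 1.35% of shared regions. At the start itself (15777886 to 15779276) the values were 4.56 and 5.09, with summits 673 and 494 bp into the gene. The third region inside the gene, 30.9 kb after the start, had 4.06 and 4.73. Both replicates thus gave the internal region over 3 times the fold enrichment of either of these. Before the start a row of 5 shared regions, from 6.69 to 23.8 kb away, had values between 3.32 and 5.96. They lie inside BST1, the gene of a related ADP-ribosyl cyclase, and are nearer to an end of BST1 than to the CD38 start. All 8 regions in the CD38 window were found in both replicates.

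SDC1 had strong regions at its start and in its body (chromosome 2, 20200797 to 20225475, minus strand). The start region of 4.39 kb (20221741 to 20226129) covered both listed starts, and its summits lay 143 and 166 bp after the inner one. Fold enrichment was 10.3 in replicate 1 and 8.73 in replicate 2, among the strongest 11.7% of shared regions. This is the highest value at a start among the 4 genes in replicate 1, while TNFRSF17 was higher in replicate 2. A second long region, 3.15 kb (20212229 to 20215378), lay 12.4 kb after the inner start, with 8.83 and 12, and its summits were 5 bp apart in the 2 replicates. A further long region of 3.19 kb, 17.9 kb after that start, had 5.57 and 5.96. The 2 regions after the end were weaker, at 2.87 and 3.33 and at 4.49 and 4.51. All 5 had SDC1 as their nearest protein-coding gene.

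FCRL5 had its 2 strongest shared regions in the far part of the gene and just beyond its end (chromosome 1, 157513377 to 157552515, minus strand). The region inside the gene, 28.4 kb after the start (157523588 to 157525171), had fold enrichments of 5.99 and 6.67. Past the end, the region at 40.3 kb (157511837 to 157512605) had 5.81 and 6.88. Those 2 differed by less than the replicate SD. A further 3 shared regions after the end had values between 2.48 and 4.28, and 1 lay 10.2 kb before the start at 3.21 and 2.79. At the start itself replicate 1 had a peak of 2.69, 447 bp inside the gene, and replicate 2 had none. All 3 single-list regions of this window came from replicate 1, the highest at 4.47.

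GPRC5D had 2 shared regions, as TNFRSF13C did, and both were near its start (chromosome 12, 12940575 to 12952170, minus strand). The first (12951916 to 12952656) covered the start, with fold enrichments of 4.29 and 6.02 and summits 136 and 25 bp before it. The second lay 1.07 kb inside the gene in replicate 1 and 0.931 kb in replicate 2, with 2.87 and 2.77. The long non-coding gene GPRC5D-AS1 overlaps both, so they cannot be assigned to GPRC5D alone. The first region was among the strongest 37.1% of shared regions.

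Ordered by the strongest shared region in the window, as the geometric mean of the 2 replicates, CD27 came first at 23.1, followed by CD38 at 17.6, TNFRSF13B at 11.8, SDC1 at 10.3, TNFRSF17 at 9.65, TNFRSF13C at 7.84, FCRL5 at 6.32 and GPRC5D at 5.06. Taken from all shared regions, the difference of 2 such means has an SD of 0.39 on the log2 scale. The strongest region of a window is a selected value, so this SD is a rough scale and no test of the order. CD38 exceeded TNFRSF13B by 0.58, beyond that SD, while CD27 exceeded CD38 by an equal 0.39 and each lower neighbour in the order was within it. With regions nearer to another gene left aside, CD27 dropped to the end at 3.23, TNFRSF13C had none, and CD38 was first at 17.6. The steps from TNFRSF17 to FCRL5 (0.61) and from GPRC5D to CD27 (0.65) were then larger than the SD as well.

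**Figure D3:**
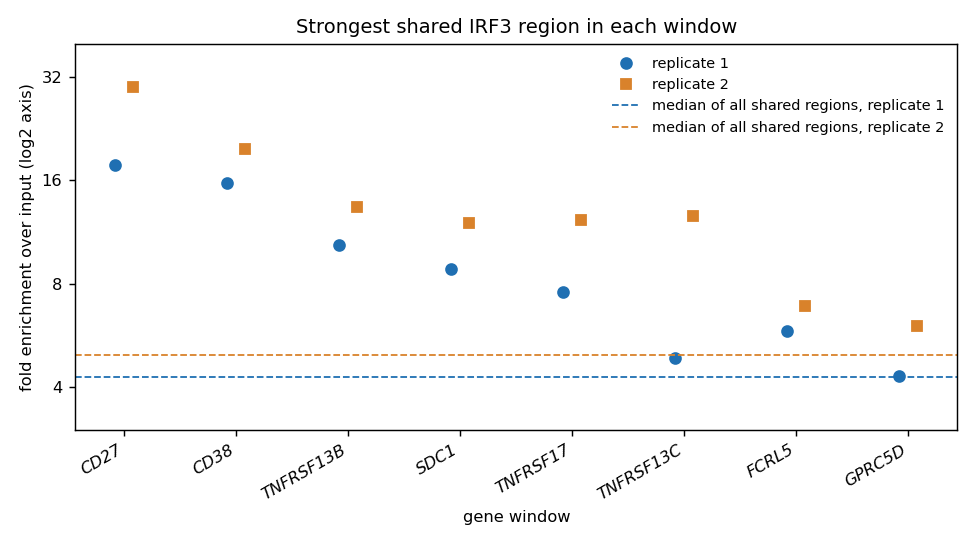
Fold enrichment over input (log2 axis) of the strongest shared region in each window, with circles for replicate 1 and squares for replicate 2. Dashed lines mark the medians of all shared regions, 4.28 and 4.94. The values at CD27 (17.7 and 30) belong to a region at VAMP1 and those at TNFRSF13C (4.87 and 12.6) to a region at CENPM. The summits of these regions also lie within the spans of TAPBPL and SMIM45, in that order.

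The genes around these receptors were described from 4 lists. Of 13 ligands and signalling partners of the APRIL, BAFF and CD70 receptors, 13 had a shared region within 1 kb of a start or end, beside 51.5% of all protein-coding genes. The strongest were at NFKB2 (fold enrichments of 12 and 21.1), a subunit of non-canonical NF-kB, and MAP3K14 (9.30 and 14.0), the kinase that activates it. RELB, the partner of NFKB2, had 8.24 and 17.7 at a region nearer to CLASRP, and the adaptor gene TRAF6 had 7.49 and 10.9. The RELB region is the best-ranked within 1 kb, 994 bp from an end of the gene. Another shared region lay closer, 194 bp from an end, and its values are not reported here. Of the ligand genes, TNFSF13 (APRIL) had 4.26 and 4.39 and TNFSF13B (BAFF) 2.93 and 2.65, below those 4 genes in both replicates. CD70 had 3.38 in replicate 1 and 13.3 in replicate 2, so its replicates were far apart and its place in the order differed between them. CD70 thus had a region at an end where its receptor gene CD27 had none at its start. The list median lay among the strongest 18.2%, beside the 22.5% of all called genes.

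Gamma-secretase, the membrane protease that sheds BCMA from the cell surface, had 5 of 6 subunit genes with a region at a start or end (83.3%, beside the same 51.5%). The best-ranked was NCSTN (6.98 and 12), and lower values were found at PSEN2 (4.50 and 5.52) and PSENEN (4.07 and 7.96), where the PSENEN region was nearer to U2AF1L4. APH1B had its nearest shared region 83.5 kb away.

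Among 14 family relatives of the 8 genes, 4 had such a region, below the 51.5% of all genes. SDC4, another syndecan, had 7.81 and 8.76. The other 3 were the FCRL5 relatives FCRLA (2.47 and 3.29), FCRL6 (4.60 and 2.46) and FCRL4 (2.22 and 3.77), all weak. SDC3 and the GPRC5D relatives GPRC5A, GPRC5B and GPRC5C had no shared region nearer than 12 kb. Of the syndecans, SDC1 and SDC4 thus had a region at the start and SDC2 and SDC3 had not, while GPRC5D was the sole gene of its group of 4 with one.

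Of 20 other surface proteins targeted or proposed as targets in myeloma, 16 had a region at a start or end (80%, beside 51.5% of all genes). The best-ranked were CD74 (18.3 and 25.1), the integrin gene ITGB7 (19.1 and 17.7), the interleukin-6 receptor gene IL6R (9.80 and 11.6) and the chemokine receptor gene CCR10 (7.75 and 17.1). SLAMF7, the target of elotuzumab, had 6.15 and 8.21. Genes without one included MS4A1, which encodes the B cell protein CD20, CD40 and CD200. These lists were compiled by hand with results known, so their shares are descriptions.

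**Figure D4:**
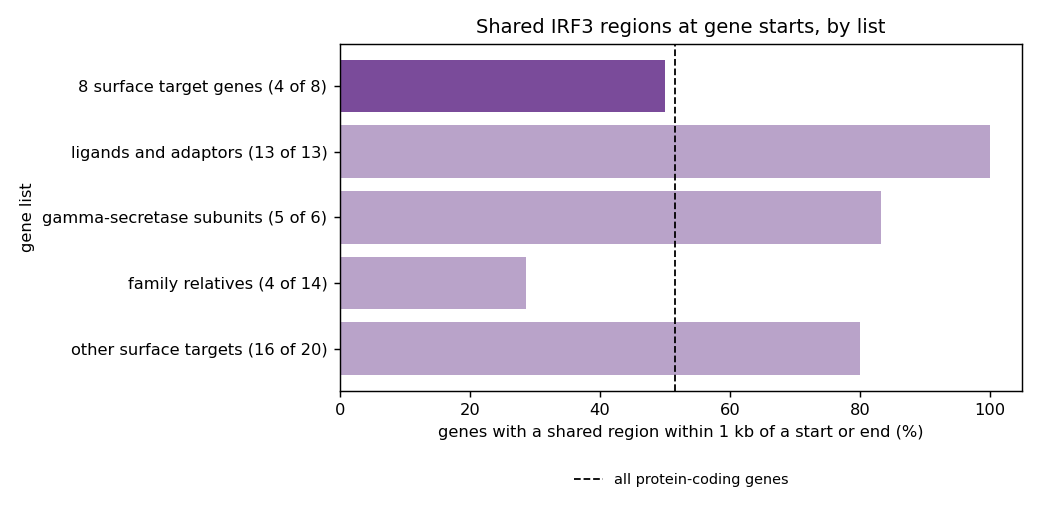
Bars give the percentage of genes in each list with a shared IRF3 region within 1 kb of a start (or of either end where no start is listed), with counts in the labels. The dashed line marks the 51.5% of all protein-coding genes; the 8 surface target genes (4 of 8) end just below it, the family relatives (28.6%) further below, and the other 3 lists above.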

How the data were processed

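Each ChIP library was compared with its own input by MACS2 to call narrow peaks, at a q-value cutoff of 0.05 and with all duplicate tags kept, per the file headers. The version is 2.1.2 in the headers and 2.1.1 in the submitters' processing notes. Those notes list, without roles, SAMtools 1.2, deepTools 3.3.1, BWA 0.7.15 and Picard 2.6.0, and give GRCh38 as the build. The deposited fold enrichment is a ratio of ChIP signal to local input. Pileup, as deposited, is the coverage signal at the summit. Damaged names in the headers hide which column is −log10 p and which is −log10 q as deposited; MACS2's column order and the values told them apart. These are the authors' values and were used only to describe and rank peaks.

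Peaks were merged in pandas 2.3.3 and numpy 2.4.6 (Python 3.11.15), and the merging was tested on simulated data. Plots used matplotlib 3.10.9. A region's summit is that of its strongest peak by percentile within its list. Genes and promoters came from RefSeq tables of GRCh38.p14; 15843 of 20037 protein-coding genes had a listed start, and both span ends were used for the rest. Fold enrichment depends on antibody recovery, duplicates and input depth. Sequence under the peaks was not analysed here. The 8 genes, the lists and the named genes (all 8, neighbours nearest to a region, and up to 4 best-ranked members of each list, with further ones named after their values were seen) were chosen with earlier results of these data known. The length of 3 kb was set after the regions were seen. The alternatives tried were the window, peak threshold, overlap rule, distance limit, gene assignment and each replicate alone. Values of some list members are not reported here.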

Additional observations from a re-analysis of the deposited data

How the results depend on the processing

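The number of windows with a shared region was 6 to 8 under all 9 alternatives tried for it. It was 7 with a flank of 10 kb or with regions nearer to another gene left out (TNFRSF13C lost its regions in both), 7 with summits within 100 bp (without GPRC5D) and 6 where both replicates needed a fold enrichment of 5 or more. The number of shared regions, 39, was 14 at that fold enrichment and 25 at a −log10 q of at least 10 in both replicates. The number of genes with a region at a start or end, 4, was 2 with a fold enrichment of 5 or more required and 2 with summits within 100 bp, in each case without CD38 and GPRC5D. Within 500 bp it was 3, where CD38 was lost (48.3% of all genes). Within 5 kb it was 6, where TNFRSF13B and CD27 were added (57.2%). From replicate 1 alone it was 5, where FCRL5 was added (52.7%). The share of all protein-coding genes with a region in the window was 77.1%. Its exact 95% interval, 76.5 to 77.7%, covers counting error only and takes genes as independent, although neighbouring windows can overlap. The share was 69.3% and 84.4% with flanks of 10 and 50 kb. It was 51.0% at a fold enrichment of at least 5, 69.0% at a −log10 q of at least 10, 71.7% with summits within 100 bp, 74.3% with 50% reciprocal overlap and 60.5% with regions nearer to another gene left out. With either replicate left out it ranged from 79.8 to 81.6%. Each stricter rule leaves fewer regions by construction. The effect of depth was not tested, and the 15 single-list regions, at fold enrichments of 2.33 to 4.47, are not evidence that the remaining replicate lacked signal there.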
